A study of Mus musculus with 2 samples.

Results

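The Hox genes are the 39 protein-coding mouse genes whose symbol is Hoxa, Hoxb, Hoxc or Hoxd followed by a number, out of 43346 mouse genes in the deposited tables, and 38 of them are described by name here. They were chosen by name and not by level. The letter gives the genomic cluster and the number the paralog group, which runs from 1 to 13. Total RNA of the neural tube, the embryonic structure that becomes brain and spinal cord, was sequenced from mouse embryos at embryonic day 12.5. The study holds 1 group of 2 biological replicates, each a pool: 120 embryos in replicate 1 and 88 in replicate 2. Both pools are of strain B6NCrl, are described as healthy and of mixed sex, and list one shared donor. The labels name no treatment and no allele. Each library started from 10 ng of RNA longer than 200 nucleotides.

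Hox proteins bind DNA through a homeodomain and give cells of the body axis their position. In the vertebrate neural tube the genes at one end of each cluster, with low paralog numbers, start in the hindbrain, and genes with higher numbers start further toward the tail. In the spinal cord they set the motor neuron columns and pools that belong to the neck, forelimb, thorax and hindlimb. With whole-tissue RNA, fewer cells of a type and less RNA per cell cannot be told apart.

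Depth was 32612423 expected counts for replicate 1 and 34555002 for replicate 2. Hox genes took 52665 and 51126 of them (0.167% and 0.152% of mouse gene counts). All 8 neural tube markers reached 1 TPM in both libraries, with a summed level of 1289 TPM in replicate 1 and 1287 TPM in replicate 2. Most of that was the neuronal tubulin Tubb3 (1004 and 1030 TPM), and the other 7 summed to 285 TPM in replicate 1 and 257 TPM in replicate 2. Of the 8, 6 were higher in replicate 1, and the part of this in the Hox differences was not tested. TPM is transcript abundance corrected for length and depth, and a gene counts as detected where both libraries hold at least 1 TPM. None of 7 forebrain and midbrain markers reached it (summed level 0.36 TPM in each library), while 5 of 6 hindbrain markers did. Errors are the SD over the 2 pools. With a single group, no p-value was computed. The intervals on counts below are exact 95% binomial intervals that cover counting error only.

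Paralog groups are defined by sequence, so 5 homeoboxes, the stretch that encodes the homeodomain, are printed to show how alike members are. A homeobox of 180 bases was found in 38 of 38 genes, in the last exon of the transcript with the longest coding sequence (GENCODE M21 on GRCm38). Capitals mark codons 42 to 58, the recognition helix that lies in the major groove of DNA. Hoxb6 (chr11:96300689-96300868, plus strand) and Hoxb7 (chr11:96289385-96289564, plus strand) are cluster neighbours, and Hoxc6 (chr15:103010754-103010933, plus strand) is a paralog of Hoxb6. Hoxb13 (chr11:96196020-96196199, plus strand) and Hoxc13 (chr15:102927210-102927389, plus strand) are the paralogs at the tail end of their clusters.
Hoxb6: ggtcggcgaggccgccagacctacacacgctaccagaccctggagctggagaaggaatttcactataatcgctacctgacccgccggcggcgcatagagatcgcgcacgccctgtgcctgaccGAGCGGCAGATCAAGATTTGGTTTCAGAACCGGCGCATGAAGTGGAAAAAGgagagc
Hoxb7: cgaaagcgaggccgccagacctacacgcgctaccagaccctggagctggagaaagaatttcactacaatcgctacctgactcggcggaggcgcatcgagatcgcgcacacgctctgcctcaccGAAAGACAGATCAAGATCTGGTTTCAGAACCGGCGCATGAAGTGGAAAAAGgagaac
Hoxc6: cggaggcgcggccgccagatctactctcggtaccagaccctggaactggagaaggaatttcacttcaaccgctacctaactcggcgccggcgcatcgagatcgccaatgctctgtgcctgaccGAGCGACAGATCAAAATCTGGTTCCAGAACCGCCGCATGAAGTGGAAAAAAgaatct
Hoxb13: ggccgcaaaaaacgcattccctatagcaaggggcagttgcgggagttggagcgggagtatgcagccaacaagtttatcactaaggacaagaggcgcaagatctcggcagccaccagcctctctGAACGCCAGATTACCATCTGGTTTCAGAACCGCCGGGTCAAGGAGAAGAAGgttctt
Hoxc13: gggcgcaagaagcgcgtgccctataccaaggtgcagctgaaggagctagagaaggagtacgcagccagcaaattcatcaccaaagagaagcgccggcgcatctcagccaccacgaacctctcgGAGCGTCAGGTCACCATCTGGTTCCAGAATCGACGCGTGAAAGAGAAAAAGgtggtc

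Hoxb6 shared 82.8% of homeobox bases with Hoxc6 and 88.9% with Hoxb7, but 51.7% with Hoxb13 and 54.4% with Hoxc13. Over all genes, 40 pairs with the same paralog number shared a median of 80.6% of bases (range 67.2% to 93.9%). The 28 pairs of adjacent numbers in one cluster shared a median of 71.1% (56.1% to 88.9%), and the 134 pairs further apart in a cluster 60.0% (48.3% to 81.1%). The 501 remaining pairs had a median of 60.6%. Hoxa3 and Hoxb3, the most alike, matched at 93.9% of bases. The longest stretch with no difference was 52 bases, between Hoxa6 and Hoxb4. The sources used here give no read length, and how many reads a pair of members could share was not tested.

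Nearly all Hox genes were present. At 1 TPM or more in both libraries stood 36 of the 39 genes, against 13333 of 21474 protein-coding genes (62.1%). The 3 exceptions, Hoxa13, Hoxb13 and Hoxd13, all belong to paralog group 13. The median Hox gene had 29.1 TPM in replicate 1 against 26.4 TPM in replicate 2, and the median detected protein-coding gene 20.97 TPM and 21.7 TPM. Of the 38 named genes, 26 exceeded 10 TPM and 12 exceeded 50 TPM in both libraries, and 8 stayed under 10 TPM in both. By mean TPM, 57.4% of protein-coding genes lay below Hoxb4 (10.4 TPM) and 83.9% below Hoxd3 (51.5 TPM). The means spanned 208-fold, with Hoxb6 at the top and Hoxa13 at the bottom.

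**Figure D1:**
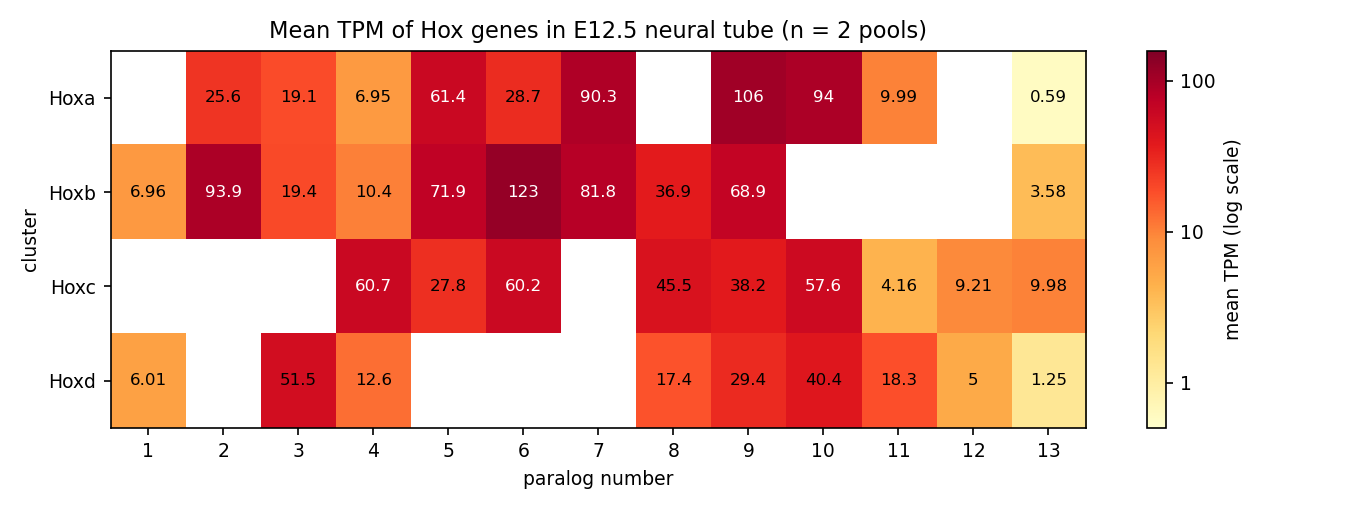
Mean TPM over both pools (colour on a log scale, value printed in each cell) for each named Hox gene, with paralog number across and cluster down. Blank cells are numbers without a described gene in that cluster; the highest cells lie between numbers 2 and 10, and group 13 stays at or under 9.98 TPM.

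In the layout by paralog number and cluster, each cluster had its own profile. Hoxb (chromosome 11, 96194316 to 96368256, GRCm38) held 60.7% ± 1.78 of its TPM in paralogs 5-8, the highest share of that class in any cluster. Hoxa (chromosome 6, where Hoxa2 to Hoxa13 lie at 52162417 to 52260880) held 47.1% ± 0.729 in paralogs 9-11 and 40.4% ± 2.84 in paralogs 5-8. Hoxc (chromosome 15, 102921103 to 103036852) was split between paralogs 5-8 (42.7% ± 5.92) and 9-11 (31.9% ± 1.88). It held 6.09% ± 3.07 in paralogs 12-13, against 3.36% ± 1.55 for Hoxd. The Hoxc share was the higher in each pool, 8.26% against 4.46% in replicate 1 and 3.92% against 2.26% in replicate 2, though values overlapped across pools. Hoxd (chromosome 2, 74668310 to 74765142) held 48.6% ± 2.05 in paralogs 9-11 and 38.5% ± 1.28 in paralogs 1-4, with 9.60% ± 0.778 in paralogs 5-8, where Hoxd8 is its single gene. Errors of these shares are SD over the 2 pools. The shares are over whole genes, and in Hoxa their order depends on the transcripts counted. On transcripts with the longest coding sequence, Hoxa5, Hoxa6 and Hoxa7 had means of 61.4, 28.7 and 11.4 TPM. Hoxa9, Hoxa10 and Hoxa11 had 48.1, 27.3 and 9.46 TPM, so paralogs 5-8 of Hoxa then stood above 9-11.

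Paralogs 1-4 pattern the hindbrain and neck. Group 2 was the highest of them, led by Hoxb2 with 97.8 TPM in replicate 1 and 90.1 TPM in replicate 2. Hoxa2, which patterns the hindbrain and the second pharyngeal arch, had 29.2 TPM and 22.1 TPM in the same order of pools. The levels of these genes did not overlap, and Hoxb2 was 3.66 times Hoxa2 by the means. Hoxb1, which sets facial motor neuron identity in the hindbrain, had 7.20 TPM in replicate 1 against 6.73 TPM in replicate 2, and Hoxd1 had 6.42 TPM and 5.61 TPM. These sat at the low end of the family. In group 3, Hoxd3 (56.7 TPM in replicate 1 and 46.3 TPM in replicate 2) stood above Hoxb3 (21.5 and 17.3 TPM) and Hoxa3 (20.7 and 17.5 TPM), which overlapped each other. In group 4, Hoxc4 with 63.8 TPM in replicate 1 and 57.6 TPM in replicate 2 was 4.83 times the next gene, Hoxd4 (13.3 and 11.8 TPM). Hoxb4 had 12.4 TPM in replicate 1 against 8.44 TPM in replicate 2, and Hoxa4 had 8.01 TPM and 5.89 TPM. No other paralog group had so high a ratio of means between its first and second gene.

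Paralogs 5-8 act at cervical, brachial and upper thoracic levels, where Hoxa5 and Hoxc5 are needed for phrenic motor neurons. Hoxb5 had 78.1 TPM in replicate 1 against 65.6 TPM in replicate 2, Hoxa5 62.8 TPM and 60.1 TPM, and Hoxc5 29.1 TPM and 26.4 TPM. The order of these 3 genes was the same in both pools. Hoxb6, the highest Hox gene, had 120 TPM in replicate 1 against 125 TPM in replicate 2. It was 2.04 times Hoxc6, a gene of forelimb-level motor neurons, which had 56.7 TPM and 63.7 TPM. Hoxa6 had 28.7 TPM in replicate 1 against 28.8 TPM in replicate 2. Hoxa7 (80.2 TPM in replicate 1 and 100 TPM in replicate 2) and Hoxb7 (80.0 and 83.6 TPM) overlapped. In group 8, Hoxc8, a gene of brachial motor pools, had 36.7 TPM in replicate 1 against 54.3 TPM in replicate 2. Hoxb8 had 44.1 TPM in replicate 1 against 29.7 TPM in replicate 2, so the leader differed between the pools while the sum over group 8 was 98.3 TPM and 101 TPM. Hoxd8 had 17.6 TPM in replicate 1 against 17.2 TPM in replicate 2.

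Paralogs 9-11 act at thoracic and lumbar levels; Hoxc9 sets the thoracic motor columns, and group 10 genes set the hindlimb columns. Group 9 had the highest sum of any group, 246 TPM in replicate 1 and 240 TPM in replicate 2. The leader Hoxa9 had 103 TPM in replicate 1 against 109 TPM in replicate 2, followed by Hoxb9 (74.8 and 63.1 TPM), Hoxc9 (37.2 and 39.2 TPM) and Hoxd9 (30.4 and 28.5 TPM). No 2 genes of group 9 overlapped. Group 10 was led by Hoxa10 with 98.5 TPM in replicate 1 and 89.4 TPM in replicate 2. Hoxc10 had 63.7 TPM and 51.4 TPM, and Hoxd10 40.3 TPM and 40.6 TPM. Group 11 summed to 36.6 TPM in replicate 1 and 28.3 TPM in replicate 2, against 203 TPM and 181 TPM for group 10. Group 11, best known for the forearm and the kidney, was led by Hoxd11 with 20.8 TPM in replicate 1 and 15.8 TPM in replicate 2. Hoxa11 had 11.1 TPM and 8.92 TPM, and Hoxc11 4.71 TPM and 3.60 TPM.

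Paralogs 12-13 act at the tail end of the axis. Hoxc12 had 11.7 TPM in replicate 1 against 6.70 TPM in replicate 2, and Hoxd12 6.63 TPM and 3.36 TPM. Without length correction the order turned: Hoxd12 had 321 and 169 expected counts, Hoxc12 217 and 129. Hoxc13 had 14.6 TPM in replicate 1 against 5.39 TPM in replicate 2. Hoxb13, which limits tail length in mice, had 6.28 TPM in replicate 1 against 0.87 TPM in replicate 2. Hoxd13 had 2.02 TPM and 0.47 TPM, and Hoxa13, needed with Hoxd13 for digits and the genital tubercle, had 1.10 TPM and 0.08 TPM. Every gene of these 2 groups was higher in replicate 1.

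Each of the 13 paralog numbers had a leader by mean TPM, and the lead was shared among the clusters. Hoxb led numbers 1, 2, 5 and 6, Hoxc led 4, 8, 12 and 13, Hoxa led 7, 9 and 10, and Hoxd led 3 and 11. For 10 numbers the lowest pool of the leader lay above the highest pool of the second gene. The leader was the same in both pools for 12 numbers, the exception being number 8. Along the whole order of 38 genes, 7 of 37 neighbouring pairs had levels that did not overlap between pools, among them Hoxb6 above Hoxa9 and Hoxa9 above Hoxa10. The other 30 overlapped, so ranks inside runs such as Hoxa10, Hoxb2 and Hoxa7 cannot be ordered here.

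**Figure D2:**
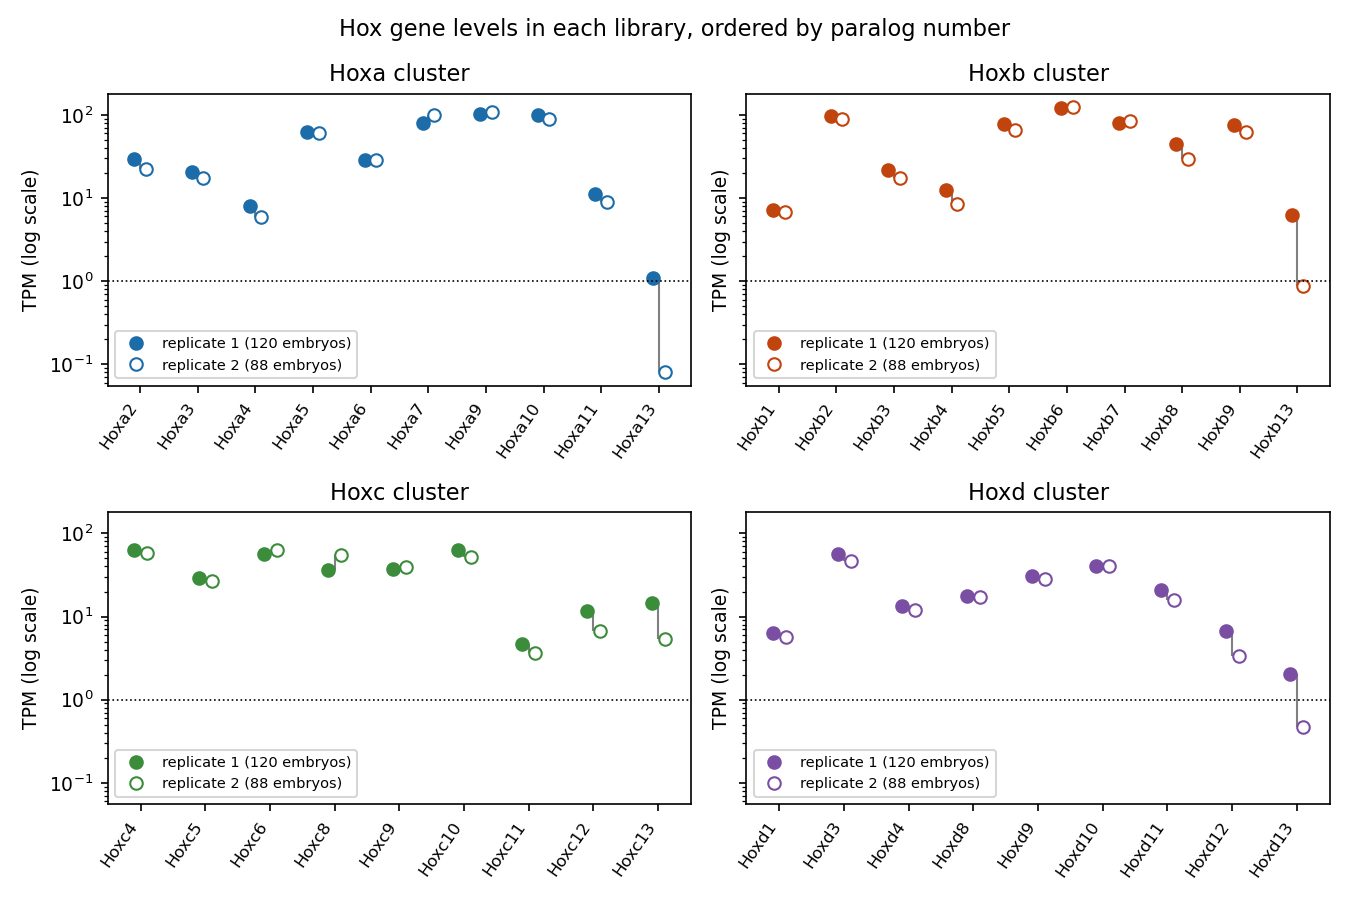
TPM of each named Hox gene on a log axis, by cluster and paralog number, with replicate 1 (filled) and replicate 2 (open) joined by a line; the dotted line marks 1 TPM. The pools lie close together for paralogs 1 to 11 and apart for 12 and 13, as for Hoxb13 with 6.28 TPM in replicate 1 and 0.87 TPM in replicate 2.

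Between the pools, most Hox genes were slightly higher in replicate 1. Of the 38 named genes, 29 were higher in replicate 1 and 9 in replicate 2. On the log2(TPM + 1) scale, which understates low genes, the ratio of replicate 1 over replicate 2 had a median of 0.16 over the 38 Hox genes whose mean reached 1 TPM, and of -0.04 over protein-coding genes. The deposited credibility intervals of TPM, whose level is not stated, were apart for 18 Hox genes higher in replicate 1 (4.35% of protein-coding genes) and for 3 higher in replicate 2 (11.5% of protein-coding genes). These 3 were Hoxa7, Hoxc6 and Hoxc8. All 12 genes of paralogs 1-4 were higher in replicate 1, with a median log2 ratio of 0.20. Paralogs 5-8 were split 5 to 6 with a median of -0.00, and in paralogs 9-11 7 of 10 genes were higher in replicate 1, with a median of 0.19.

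A ratio over 2-fold was found for 3 Hox genes in replicate 1, against 0.104% of protein-coding genes and 0.833% of all mouse genes. In replicate 2 none of the 38 passed, against 0.0444% and 0.597%. All 3 belong to group 13: Hoxb13 with a log2(TPM + 1) ratio of 1.96, Hoxc13 with 1.29 and Hoxd13 with 1.04. Hoxb13 had 263 expected counts in replicate 1 against 38 in replicate 2, a log2 count ratio of 2.88 (2.38 to 3.41). Hoxd13 had 96 and 23 counts, a log2 count ratio of 2.15 (1.48 to 2.87). Hoxa13, whose mean was under 1 TPM, had 50 and 4 counts, a log2 count ratio of 3.73 (2.28 to 5.66). For group 12 the log2 count ratios were 0.84 (0.51 to 1.16) for Hoxc12 and 1.01 (0.74 to 1.29) for Hoxd12. By this ratio of depth-scaled counts, with no pseudocount or minimum TPM, 5 of the 39 Hox genes were over 2-fold higher in replicate 1, Hoxa13 and Hoxd12 besides the 3 above, against 1.55% of the 15499 protein-coding genes with at least 10 counts over both libraries. None was over 2-fold higher in replicate 2 (1.37% of protein-coding genes). The count was added after seeing the data. Summed over paralogs 12-13 the log2 count ratio was 1.47 (1.33 to 1.60), and over paralogs 1-4 it was 0.24 (0.20 to 0.27).

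**Figure D3:**
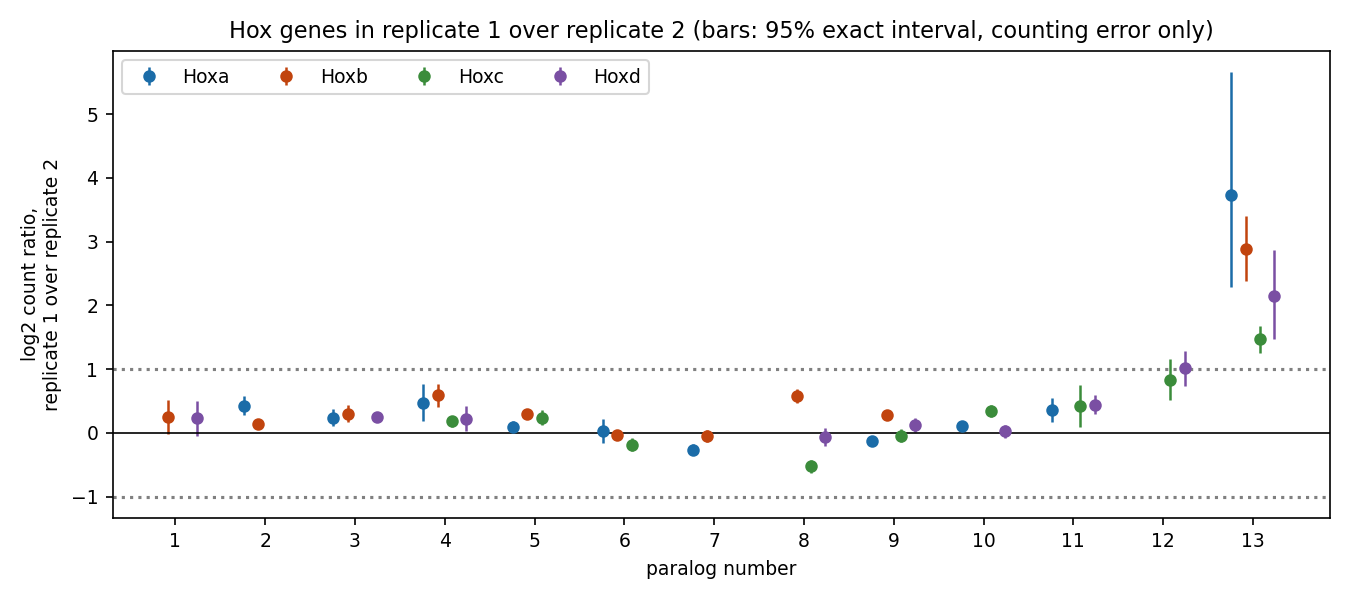
log2 ratio of depth-scaled expected counts, replicate 1 over replicate 2, against paralog number, coloured by cluster; bars are exact 95% intervals for counting error only and dotted lines mark 2-fold. Values stay between -0.52 (Hoxc8) and 0.59 (Hoxb4) for paralogs 1 to 11 and reach 3.73 for Hoxa13.

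Across genes the ratio and the paralog number had Spearman's rho of 0.28 and Pearson's r of 0.45 over 38 genes, all from the same 2 libraries. Without paralogs 12 and 13 these were -0.10 and -0.11 over 33 genes. Genes are not independent replicates, and the values describe these 2 pools.

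Markers of other cell types also differed between the pools. All 9 somite and muscle markers were higher in replicate 1, with a summed level of 334 TPM in replicate 1 and 239 TPM in replicate 2. The highest was Actc1, a muscle actin (131 and 88.0 TPM), and among the lowest was Myf5, a muscle determination factor (5.58 and 2.66 TPM). All 8 sensory ganglion markers were higher in replicate 2, with a sum of 413 TPM in replicate 1 and 590 TPM in replicate 2. Of 9 tail bud markers 4 were detected, with sums of 7.86 TPM in replicate 1 and 7.36 TPM in replicate 2, and Msgn1 and Cdx2 had 0 counts in both. Of 8 limb mesenchyme markers 3 were detected, with sums of 54.2 TPM in replicate 1 and 50.9 TPM in replicate 2. Of the 5 with a mean of at least 1 TPM, 3 were higher in replicate 1 and 2 in replicate 2, and the highest, Shox2, had 23.1 TPM in replicate 1 against 23.7 TPM in replicate 2. The other 3, under 1 TPM in both pools, were all higher in replicate 1. Among them Hand2 had 13 counts in replicate 1 against 5 in replicate 2. The lowest, the forelimb factor Tbx5, had 6 counts and 0. Pitx1, a hindlimb factor chosen for mention after its values were seen, had 77 counts in replicate 1 and 20 in replicate 2. Of 6 kidney and urogenital mesenchyme markers 5 were detected, with sums of 74.9 TPM in replicate 1 and 70.4 TPM in replicate 2. Most of that was Pax8 (46.18 and 41.57 TPM), while Wt1 had 2.08 and 2.53 TPM. Of 6 hindgut markers 2 were detected, with sums of 13.3 TPM in replicate 1 and 15.1 TPM in replicate 2. Most of that was Sox17 (11.03 and 12.19 TPM), while Cdx2 and Fabp2 had 0 counts in both. These sums therefore rest largely on a single gene each. The 6 neural crest and Schwann cell markers summed to 101 TPM in replicate 1 and 119 TPM in replicate 2. The part of any of these in the Hox differences was not tested.

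Transcripts of 1 gene can differ in whether they encode the full protein. The 38 named genes had 85 transcripts in the files, 15 genes had a single one and the maximum was 6. Transcripts whose biotype is protein-coding held 84.3% of named Hox TPM in replicate 1 and 83.9% in replicate 2, against 88.0% and 88.3% over all protein-coding genes that reached 5 TPM in both libraries. Those with the longest coding sequence of their gene held 75.1% in each. Transcripts whose exons contain the whole homeobox, 69 of the 85, held 93.8% in replicate 1 and 93.9% in replicate 2. They include transcripts with no annotated coding sequence, such as Hoxa10-203 and Hoxd3-206, so not all of this RNA is annotated to encode a homeodomain. The lowest share on transcripts that contain the homeobox was that of Hoxa3, 54.9% in replicate 1 and 58.1% in replicate 2. These shares are estimates in which overlapping transcripts compete for the same reads.

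For 3 Hox genes the most abundant transcript was not of protein-coding biotype, out of 33 that reached 5 TPM in both libraries; among protein-coding genes this held for 686 of 10811 (6.35%). In Hoxa10, transcript Hoxa10-203, a processed transcript, took 59.1% in replicate 1 and 53.6% in replicate 2. In Hoxa7, Hoxa7-205, annotated as subject to nonsense-mediated decay, took 45.1% and 44.5%. In Hoxd3, Hoxd3-206, a retained intron in a single exon, took 57.1% in replicate 1 and 62.7% in replicate 2. The full-length Hoxa10-202 had 24.7 TPM in replicate 1 against 29.8 TPM in replicate 2, and full-length Hoxa7-201 10.7 TPM and 12.1 TPM.

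Ranked by the transcripts with the longest coding sequence, a ranking chosen after the data were seen, the order of the family shifted. Hoxb6, Hoxb2, Hoxb7, Hoxb9 and Hoxb5 were then the 5 highest. Hoxa9 moved from rank 2 to rank 8, Hoxa10 from 3 to 16, Hoxa7 from 5 to 23 and Hoxd3 from 13 to 21. The leading gene was the same as by whole genes for 9 of 13 paralog numbers, and Hoxa led none. Hoxb7 led number 7 with a mean of 79.4 TPM (Hoxa7 11.4), Hoxb9 led number 9 with 64.4 TPM (Hoxa9 48.1), and Hoxc10 led number 10 with 57.6 TPM (Hoxa10 27.3), each above the second gene in every pool. Hoxd1 (6.02 TPM) and Hoxb1 (5.30 TPM) changed places in number 1 with levels that overlapped. Hoxd3 (15.4 TPM) still led number 3, but its pools overlapped those of Hoxb3 (13.4 TPM). The Hoxb share of Hox TPM was 43.5% ± 0.794 on these transcripts and 35.4% ± 1.01 over whole genes, and the Hoxa share 21.2% ± 0.845 and 30.7% ± 1.24 (SD, n = 2).

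**Figure D4:**
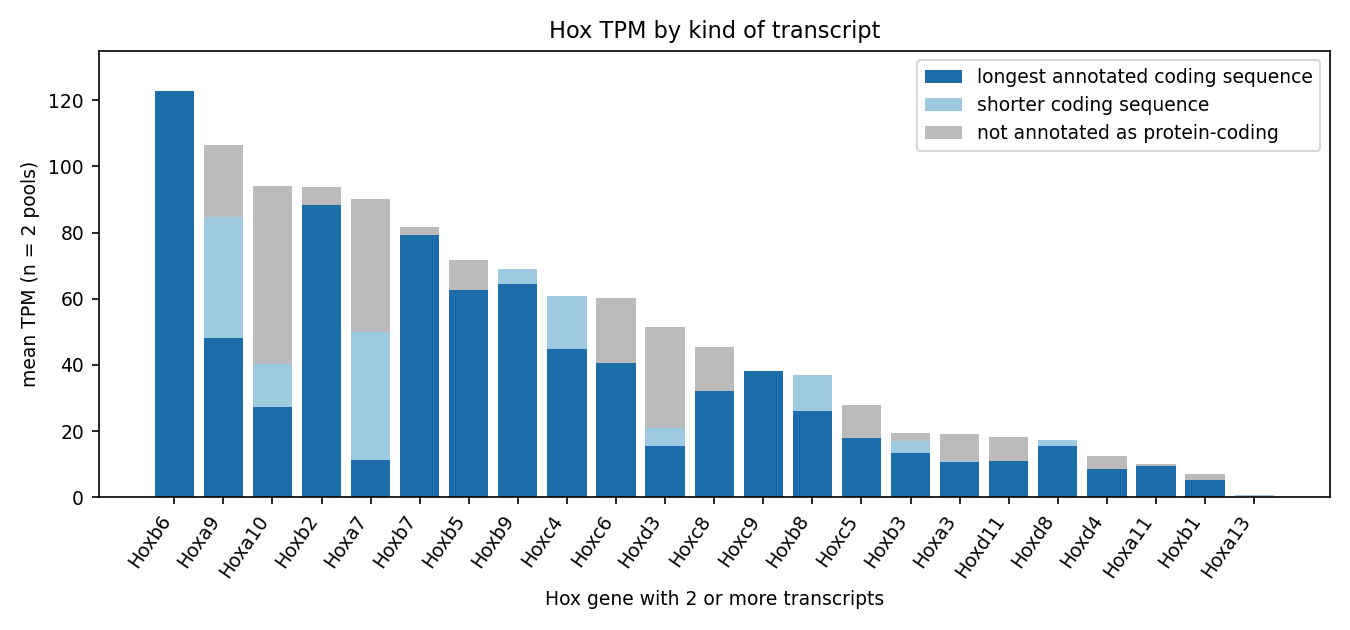
Mean TPM over both pools for the 23 named Hox genes with 2 or more transcripts, stacked by kind of transcript: longest annotated coding sequence, shorter coding sequence, and not annotated as protein-coding. In Hoxa10, Hoxa7, Hoxd3, Hoxa9 and Hoxa13 the longest coding sequence holds less than the other kinds together (27.3, 11.4, 15.4, 48.1 and 0 TPM). All counts of Hoxa13 fell on a transcript with a shorter coding sequence.

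Among the 22 Hox genes with 2 or more transcripts and at least 5 TPM, the most abundant transcript differed between the pools in 1, Hoxd4, against 7.34% of protein-coding genes. In Hoxd4 the leader of replicate 1 was the coding Hoxd4-202 with 38.6%, and that of replicate 2 the non-coding Hoxd4-203 with 36.3%. The Hoxa3 gene model spans Hoxa4, Hoxa5 and Hoxa6, and the Hoxc5 model spans Hoxc6, Hoxc8, Hoxc9 and part of Hoxc10, on the same strand. Other genes overlapped 22 of the 38 named genes and none overlapped 16; 13 had a partner on the opposite strand. The sources used here do not state whether strand was used in counting, and levels of such pairs are less certain.

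Start regions show where these transcripts begin. RefSeq windows of 300 bases (GRCm38.p6, 250 before the start and 50 from it on) were matched for 22 of the 38 genes, as 24 windows. No window was matched for Hoxa4, Hoxb2, Hoxb3, Hoxb5, Hoxb6, Hoxb7, Hoxb9, Hoxb13, Hoxc5, Hoxc6 or Hoxc8 to Hoxc13. Hoxa10 is shown because its transcripts divide between starts: the first window (chr6:52234890-52235189, minus strand) begins Hoxa10-202, and the second (chr6:52240805-52241104, minus strand) begins Hoxa10-201, with 14.7 TPM in replicate 1 and 11.1 TPM in replicate 2. The most abundant Hoxa10-203 starts in neither window, at base 52233324. Capitals mark the 50 bases from the start on.
Hoxa10 first window: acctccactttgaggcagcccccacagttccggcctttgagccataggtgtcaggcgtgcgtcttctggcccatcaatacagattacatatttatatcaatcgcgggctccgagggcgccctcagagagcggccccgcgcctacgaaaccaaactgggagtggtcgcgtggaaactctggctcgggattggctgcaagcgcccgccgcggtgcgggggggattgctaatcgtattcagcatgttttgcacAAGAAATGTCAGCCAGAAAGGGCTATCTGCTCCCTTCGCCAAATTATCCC
Hoxa10 second window: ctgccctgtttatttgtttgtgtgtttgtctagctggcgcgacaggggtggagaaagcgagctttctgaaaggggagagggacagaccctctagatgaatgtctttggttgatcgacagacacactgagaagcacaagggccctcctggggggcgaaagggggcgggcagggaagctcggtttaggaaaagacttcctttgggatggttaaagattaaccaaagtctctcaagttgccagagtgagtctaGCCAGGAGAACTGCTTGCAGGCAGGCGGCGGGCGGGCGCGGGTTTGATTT
Hoxb8, whose level differed between the pools, is shown because its window (chr11:96281655-96281954, plus strand) held the most matches to 2 motifs searched on both strands. These were TTTATG, the core bound by Cdx proteins, which activate Hox genes in the tail bud, and TGATNNAT, a core bound by Pbx-Hox pairs. Capitals mark 2 matches to the first motif and 1 to the second, none of which overlap.
Hoxb8 window: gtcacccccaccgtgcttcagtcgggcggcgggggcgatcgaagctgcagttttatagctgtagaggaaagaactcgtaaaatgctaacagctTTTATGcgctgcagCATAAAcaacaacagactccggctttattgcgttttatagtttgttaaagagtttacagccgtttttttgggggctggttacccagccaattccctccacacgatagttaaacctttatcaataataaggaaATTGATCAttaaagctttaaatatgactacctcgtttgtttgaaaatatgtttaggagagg

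TTTATG was found in 5 of 24 Hox windows (20.8%) and in 11.9% of all 32851 windows, and TGATNNAT in 4 (16.7%) and in 8.85%. The median Hox window had 57.7% G and C, against 52.7% over all windows. Its observed-to-expected ratio of CpG was 0.626, against 0.384. A match is a description of letters and not a bound site.

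Genes between and beside the Hox genes, within 20000 bases of a cluster, numbered 52, of which 24 were detected in both libraries. Long neighbours made up 26 of the 52, with 19 detected. Rows of miRNA and miscellaneous RNA made up the other 26, with 5 detected. Of these 5, Gm27868 rested on 1 and 2 expected counts. No such share was computed over all non-coding genes. Several of the 52 neighbours are antisense or long non-coding RNAs. Hotairm1, a long RNA at the low-number end of Hoxa, had 75.0 TPM in replicate 1 against 69.9 TPM in replicate 2. Hoxd3os1 had 68.3 TPM and 65.9 TPM, and Hoxb5os, which overlaps Hoxb5 and Hoxb6, had 63.8 TPM and 59.6 TPM. Hotair, in the Hoxc cluster, was low at 3.32 TPM in replicate 1 and 3.48 TPM in replicate 2. At the tail end of Hoxa, Hoxa11os had 29.4 TPM in replicate 1 against 15.7 TPM in replicate 2, a log2(TPM + 1) ratio of 0.87, chosen for mention after its values were seen. Hottip, a long RNA beyond Hoxa13 and likewise chosen after its values were seen, had 7 expected counts in replicate 1 against 0 in replicate 2; a count of 0 there allows up to 0.0895 CPM. Of 19 detected long neighbours 16 were higher in replicate 1, with a median log2 ratio of 0.18, against -0.04 over protein-coding genes. Several of these neighbours overlap Hox genes and may share reads with them, so their ratios are not independent of the Hox ratios. Of 6 miRNA rows, 5 had 0 counts in both libraries, and the libraries held RNA longer than 200 nucleotides.

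Hox proteins bind DNA with TALE partners of the Meis, Pbx and Pknox families, and 9 of 9 such genes were detected in both libraries. Meis3 had 159 TPM in replicate 1 against 169 TPM in replicate 2, and Meis1 156 TPM and 159 TPM. Of these, 5 were higher in replicate 1 and 4 in replicate 2, with a median log2 ratio of 0.01. Of 14 regulators of Hox genes 9 were detected, among them Gbx2, a hindbrain border factor (76.3 TPM in replicate 1 and 65.4 TPM in replicate 2), and the retinoic acid receptor Rarb (44.4 and 44.2 TPM). The caudal factors Cdx2 and Cdx4 had 0 counts in both libraries. All 5 motor column genes that depend on Hox activity were detected and were higher in replicate 2. Their log2 ratios ran from -0.48 to -0.04 with a median of -0.15, against a median of -0.04 over protein-coding genes. Foxp1, the cofactor of limb-level Hox proteins, had 69.5 TPM in replicate 1 against 76.1 TPM in replicate 2, and Aldh1a2, the retinoic acid enzyme of limb-level motor neurons, 75.0 TPM and 83.2 TPM. Isl1 of the ganglion list, also a motor neuron factor, had 110 TPM in replicate 1 against 156 TPM in replicate 2.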

How the data were processed

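Total RNA of 2 pools of mouse neural tube was measured, extracted with mirVana and with a SMARTer Ultra Low kit manual linked, per the labels' protocols. Each library has a gene table and a transcript table deposited by the authors, on assembly mm10 with GENCODE M4, per the deposited read-me text. The deposited expected counts are estimated reads and need not be whole. The deposited TPM values are corrected for effective length and depth, and the deposited percent values split a gene's abundance among its transcripts. The level of the deposited TPM intervals, the program that made the values and the use of strand are not given in the sources used here. A later series supersedes this one, per its title, and was not used here.

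Names, biotypes and coordinates (1-based) came from GENCODE M21 on the same assembly, by identifier without version, which matched 42462 of 43346 mouse genes and all 85 named Hox transcripts. Spike-in and number-named rows were left out. One gene of the rule is not reported by name, but it stays in sums and counts over the 39. Ratios are log2(TPM + 1), replicate 1 over replicate 2, for genes whose mean reached 1 TPM. The 2 libraries of 1 group allow no test of a condition, so counts of genes are set beside those over all protein-coding genes. A count of 0 allows 0.0949 CPM in replicate 1 and 0.0895 CPM in replicate 2 (a floor of 3 counts). Scaling alternatives used edgeR 4.0.16 (TMM) and DESeq2 1.42.0 size factors on rounded expected counts, with R 4.3.3. Tables were made with Python 3.11.15, pandas 2.3.3, SciPy 1.17.1 and matplotlib 3.10.9. Only the log2 ratio and the 2-fold call were checked on simulated data. The homeobox was found by translating the longest coding sequence. The rule for named genes takes all listed Hox genes and the 2 highest and 2 lowest members of other lists and the 3 highest neighbours per cluster, shortened here; Pitx1, Hoxa11os and Hottip fall outside it and were chosen after their values were seen; protein sequences it also planned are replaced by homeobox bases. Neighbours were taken within 20000 bases. The members, lists and comparisons were chosen with earlier results of these data known.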

Additional observations from a re-analysis of the deposited data

How the results depend on the processing

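Of 83 alternatives over 18 results, 67 stayed within the spread between pools or, for counts, within 1.5 times, and 16 moved. Each value was judged alone, so this rule cannot see a change of order. By transcripts with the longest coding sequence, Hoxc (23.2%) stood above Hoxa (21.2%). Over whole genes Hoxa (30.7%) stood above Hoxc (21.5%). For shares and the median level, a value from a single pool always lies within the SD over the 2 pools. Leaving out replicate 1 or replicate 2 could therefore not move those results, and these alternatives say nothing on their stability. A kept count can hide other genes: the leading gene changed for number 12 by expected counts (Hoxd12) and for number 8 without replicate 2 (Hoxb8), leaving 12 of 13 each, and for 4 numbers on transcripts with the longest coding sequence, leaving 9. By expected counts in place of TPM, the shares of paralogs 1-4, 5-8 and 9-11 were 23.6%, 38.3% and 36.0%, and those of Hoxa, Hoxb, Hoxc and Hoxd 29.1%, 34.2%, 22.0% and 14.7%. On transcripts with the longest coding sequence, an alternative chosen after seeing the data, paralogs 9-11 held 30.1%, and Hoxa, Hoxb and Hoxc 21.2%, 43.5% and 23.2%. The median log2 ratio of paralogs 12-13 was 1.42 with a pseudocount of 0.1, 1.27 with CPM scaled by TMM and 1.26 with DESeq2 size factors. At 1 TPM in place of 5 TPM the most abundant transcript differed in 2 Hox genes. The same 3 genes passed 2-fold with a pseudocount of 0.1, no filter on low values, posterior-mean TPM, TMM and DESeq2 size factors, and 5 genes passed by depth-scaled counts without a pseudocount or minimum TPM, also chosen after seeing the data; Hoxa13 and Hoxd12 were added. Without replicate 1 the share of paralogs 12-13 was 1.19%, and without replicate 2 it was 2.82%; such single-library values have no error. Low counts of group 13 in replicate 2 (4 to 263) limit precision. No paired analysis was possible because the design holds 1 group.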
